A study of Homo sapiens with 24 samples.

Results

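The transcripts of 38 interferon-stimulated genes were followed by RNA-seq in 2 colorectal cancer cell lines. The 38 genes were chosen by name as a list of well-known interferon targets, with earlier results of these data known. Counts set beside those of all genes are therefore a description. Each of the 38 was found once among the 33382 gene rows of the 24 deposited tables. The libraries came from SW480 and SW620, epithelial lines that were isolated from the same patient, and fell into 12 groups of 2 libraries. In each line, cells carried either a lentiviral empty vector (vector) or a lentiviral construct for the catalytic domain of TET2 (Tet2CD), an enzyme that oxidises 5-methylcytosine on the way to DNA demethylation. Vector and Tet2CD cells alike had been infected with virus packaged in HEK293T cells and kept in 5 µg/ml puromycin, so both sides of each construct comparison shared that history. Each of these 4 cell stocks was cultured for 24 h with the solvent DMSO, with 4 ng/ml TGFB1 or with 1 µM RepSox, an inhibitor of the type I TGF-β receptor. These times and doses are those of the labels, whereas the study's supplement describes a mixture of TGF-β isoforms and a treatment of several days, so the cytokine and duration behind the treatment comparisons are uncertain. The 2 libraries of a group were not labelled as separate cultures, so the p-values measure only the spread between libraries, which may be technical. The promoter that drove the construct and the number of clones behind a cell stock were not given in the sources used here.

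Interferon-stimulated genes are the effector arm of the antiviral response. Type I and type III interferons bind their receptors, JAK kinases activate the complex ISGF3, which holds STAT2 and IRF9 and binds the interferon-stimulated response element (ISRE). Type II interferon acts through the gamma-activated site (GAS), and IRF1 and IRF7 are themselves induced and act on further targets. The products block viral entry (IFITM proteins), trap budding virus (BST2), modify proteins with ISG15 (UBE2L6, HERC5), degrade RNA (OAS family, ISG20) or hold down translation (EIF2AK2, IFIT family). In epithelium the same genes respond to double-stranded RNA sensed inside the cell.

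The libraries held 2146123 to 4410567 estimated counts, with a median of 3653712. The TET2 row takes reads of the construct as well as the endogenous gene. It stood at 269 to 2632 CPM in the 12 Tet2CD libraries and at 10.3 to 24.9 CPM in the 12 vector libraries. CPM are counts scaled to the library total multiplied by its TMM normalisation factor. The first libraries of the 3 SW480 Tet2CD groups stood apart from the rest. The SD over genes of the log2 difference from the partner library was 0.662 to 1.09 in these 3 pairs and 0.332 to 0.473 in the other 9 pairs. Short genes read higher and long genes lower in them than in their partners. The median log2 difference from the partner, taken over genes of up to 1754 bases, minus that over genes of 3006 bases or more was 0.83 to 1.27 in the 3 pairs and -0.21 to 0.40 in the other 9. Their ribosomal protein genes took at least 10.1% of the counts, against 5.74% to 9.42% in the other 21 libraries. For the called changes with Tet2CD in SW480 that are named, the values without these 3 libraries are given where they differ in call or by over 1.5 times, and for the leading genes. The lines matched their labelled epithelial type, with EPCAM at 231 TPM (a level scaled to gene length and library total) or more and KRT8 at 3456 TPM or more in every library. KRT20, CDX1, LGALS4 and CEACAM5, markers of differentiated colon cells, did not exceed 18.8 TPM. The summed level of 8 blood cell markers was 5.29 to 12.7 TPM in SW480 and 28.2 to 52.1 TPM in SW620, and that of 4 markers of plasmacytoid dendritic cells, which make interferon alpha, was 0 to 11.2 TPM. The blood marker CD68, a lysosomal protein, reached 44.5 TPM in SW620, while PTPRC, which defines blood cells, did not exceed 0.33 TPM. As in any bulk sample, fewer expressing cells and less RNA per cell cannot be told apart.

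The interferon genes themselves were close to silent. Of 12 ligand genes looked up, 9 had no count in any library, among them IFNB1, IFNG and IFNA1, and the 12 together had 33 counts over the 24 libraries. IFNE, a type I interferon of epithelia, gave 26 of these, with no more than 4 in a library. None of the 12 had enough counts to be tested.

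**Figure D1:**
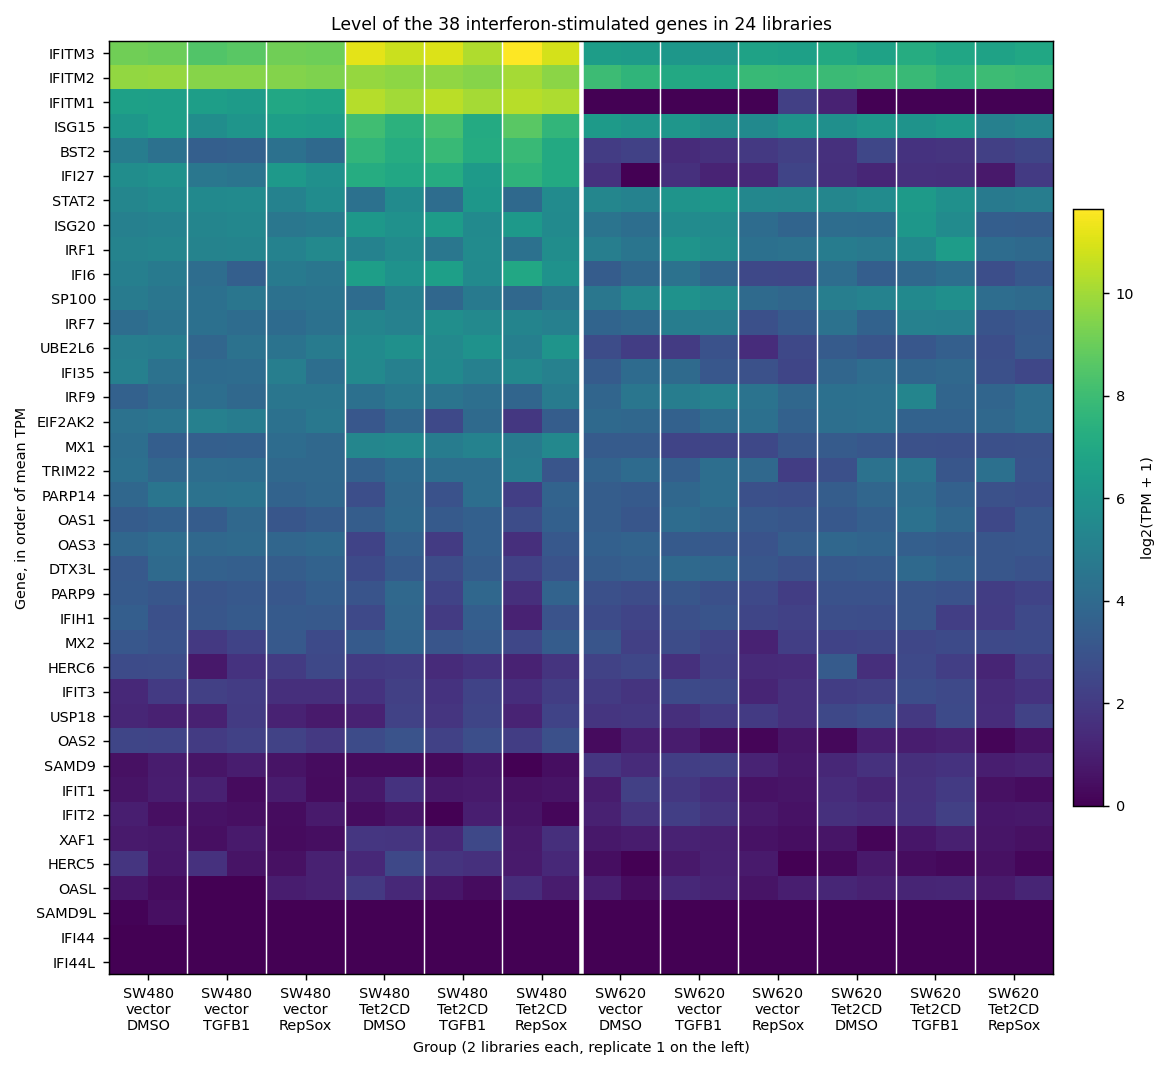
Level of the 38 genes in every library. Each row is a gene, in order of mean TPM from the top, and each column is 1 library, in pairs by group. The colour gives log2(TPM + 1). IFITM3, IFITM1 and BST2 are brightest in the 6 SW480 Tet2CD columns, IFITM1 is dark in SW620, and IFI44 and IFI44L are dark throughout.

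The 38 genes spanned a wide range of levels. Averaged over the 24 libraries, the 3 IFITM genes, which encode membrane proteins that restrict viral entry, led the list with IFITM3 at 687 TPM, IFITM2 at 512 TPM and IFITM1 at 333 TPM. The ubiquitin-like modifier ISG15 followed at 110 TPM and the tetherin gene BST2 at 51.3 TPM. IFI27 averaged 47.2 TPM, STAT2 43.6 TPM, ISG20 38.2 TPM, IRF1 36.4 TPM and IFI6 31.2 TPM. At the other end, IFIT1, an RNA-binding translation inhibitor, averaged 1.18 TPM and IFIT2 1.15 TPM. IFI44 and IFI44L had no count in any library. SAMD9L had 3 counts in 2 libraries, and OASL had 101 counts over all libraries. These 4 genes were too low for the test, which left 34. Summed over all 38, the level was 1623 to 2077 TPM in the 6 SW480 vector libraries and 3977 to 6897 TPM in the 6 SW480 Tet2CD libraries. In SW620 the 12 libraries lay between 586 and 940 TPM. The sum is carried mostly by the IFITM genes.

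The promoters of the leading genes were read from the RefSeq windows of 250 bases before and 50 bases after the start (GRCh38.p14), because the ISRE is the sequence through which ISGF3 acts. A window was found for 30 of the 38 genes. The ISRE core, GAAA followed by any pair of bases and GAAA again, was searched on both strands and occurred in 20 of the 30 windows (66.7%), against 4.38% of the 27305 genes with a window. The palindromic GAS letters TTCNNNGAA occurred in 9 (30.0%), against 9.38%. Stretches before the start of the 4 genes with an ISRE core that rose most with Tet2CD in SW480, and of IRF1 for its GAS, are shown 5′ to 3′ on the strand of the gene, with the matches in capitals.
BST2 (chr19:17405725-17405824, minus strand): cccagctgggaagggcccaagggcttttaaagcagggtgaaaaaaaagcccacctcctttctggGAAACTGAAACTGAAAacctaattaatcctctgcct
IFITM1 (chr11:313930-314029, plus strand): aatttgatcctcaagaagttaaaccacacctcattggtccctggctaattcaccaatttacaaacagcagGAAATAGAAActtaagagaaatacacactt
IFITM3 (chr11:320866-320965, minus strand): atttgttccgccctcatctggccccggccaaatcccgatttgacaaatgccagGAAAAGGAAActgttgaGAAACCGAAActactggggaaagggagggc
IFI6 (chr1:27672256-27672368, minus strand): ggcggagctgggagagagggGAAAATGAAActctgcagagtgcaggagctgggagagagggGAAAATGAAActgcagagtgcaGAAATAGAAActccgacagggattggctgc
IRF1 (chr5:132490869-132490968, minus strand): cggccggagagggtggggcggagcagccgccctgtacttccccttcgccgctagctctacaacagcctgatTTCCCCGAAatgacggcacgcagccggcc

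In BST2 a pair of cores overlapped, and began 130 bases before the start. IFITM3 held 2 separate cores and IFI6 held 3, the first beginning 52 and 156 bases before the start. The stretches shown of BST2 and IFITM1 held no CpG, the dinucleotide that TET enzymes demethylate, and those of IFITM3 and IFI6 held 4 and 2. The whole windows of BST2, IFITM1, IFITM3 and IFI6 held 2, 3, 8 and 9. Over whole windows the median was 8.5 CpG for the 30 genes and 16 for all genes. It was 8 for the genes that rose with Tet2CD in SW480, with a range of 2 to 41. For the other genes of the list it was 14, with a range of 0 to 30. The core occurred in 9 of 14 windows of genes that rose with Tet2CD in SW480 and in 11 of 16 windows of the other genes. A match is a description of the letters and not evidence of a bound site.

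The first comparison was between the lines in vector cells, which had been infected and selected, averaged over DMSO, TGFB1 and RepSox. Of the 34 genes tested, 16 were higher in SW480 than in SW620 and 4 were lower (edgeR quasi-likelihood test with Benjamini-Hochberg adjustment, adjusted p under 0.05). Among all 15302 genes tested, 28.9% were called higher and 30% lower, so the 16 stood above the background of higher calls and the 4 below that of lower calls. The median log2 fold change was 0.45 over the 34 genes and -0.04 over all genes tested.

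IFITM1 differed most between the lines. It measured 83.0 to 125 TPM in SW480 vector cells, with a median of 95.0 TPM, while 5 of the 6 SW620 vector libraries were at 0 and the other was at 3.58 TPM. The summed counts, 1108 against 5.63, gave a ratio per total count of 194 with an exact 95% interval of 83.2 to 496, which covers counting error only. Its neighbour IFITM3 measured 352 to 550 TPM in SW480 and 68.2 to 104 TPM in SW620, without overlap, and was 5.36-fold higher (log2 2.42, SE 0.27, adjusted p = 9.29e-07). IFITM2 measured 672 to 893 TPM against 125 to 253 TPM, a log2 difference of 1.92 (SE 0.19, adjusted p = 2.58e-07). The 3 genes are neighbours on chromosome 11 and share much of their sequence. IFITM1 (chr11:313506-315272, plus strand, GRCh38) falls inside the annotated span of IFITM2 (chr11:307631-315272), and IFITM3 (chr11:319669-327537) is on the minus strand, so the split of reads among them by RSEM is uncertain.

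IFI27, a mitochondrial protein and one of the strongest interferon targets, measured 21.4 to 75.8 TPM in SW480 vector cells and 0 to 4.20 TPM in SW620 vector cells. Its log2 difference was 4.18 (SE 0.49, adjusted p = 1.65e-06). OAS2, a synthase of the 2-5A signal that activates RNase L, measured 2.76 to 4.46 TPM against 0.12 to 0.97 TPM, 9.94-fold higher (log2 3.31, SE 0.28). BST2 measured 10.6 to 30.0 TPM against 1.69 to 3.79 TPM (log2 2.72, SE 0.45, adjusted p = 6.08e-05), and UBE2L6, the E2 enzyme that carries ISG15, 13.4 to 30.6 TPM against 1.81 to 6.68 TPM (log2 2.40, SE 0.20). None of these pairs of ranges overlapped. In CPM, every SW480 vector library lay above every SW620 vector library for 11 of the 34 genes and below for 0. Over all 15302 genes tested, 2979 lay wholly above and 2933 wholly below. The other higher genes, IFI35, HERC5, MX1, IFI6, MX2, IFIH1, PARP14, EIF2AK2 and OAS3, differed by 0.58 to 1.41 on the log2 scale. Of these, the calls of MX2, OAS3, IFIH1 and HERC5 were lost when log2(TPM + 1) was tested with limma in place of the counts. Leaving out 1 library ended the call of OAS3 and of HERC5 for 7 of the 12 libraries each, that of IFIH1 for 5 and that of IFI6 for 4.

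The lower genes were all at low levels. SAMD9, a virus restriction factor, measured 0.30 to 0.93 TPM in SW480 and 0.66 to 3.57 TPM in SW620 (log2 -1.83, SE 0.30, adjusted p = 5.3e-05). IFIT2 differed by -1.50, IFIT1 by -1.01 and USP18, which removes ISG15 and damps receptor signalling, by -0.97 on the log2 scale. The ranges of these 4 genes overlapped between the lines in TPM. The call of IFIT2 was lost without SW620 vector RepSox replicate 1. Leaving out any 1 of 8 of the 12 libraries ended the call of IFIT1, which DESeq2 also did not make, and any 1 of 6 ended that of USP18. None of the transcription factors passed the threshold. STAT2 differed by 0.02 (SE 0.15), IRF1 by 0.13 (SE 0.12), IRF7 by 0.35 (SE 0.21) and IRF9 by -0.32 (SE 0.15), with adjusted p of 0.937, 0.37, 0.171 and 0.0786.

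The second comparison asked what Tet2CD did to these genes in each line. In SW480, averaged over DMSO, TGFB1 and RepSox, 19 of the 34 genes rose with Tet2CD and 4 fell. Over all genes tested, 29.1% rose and 25.2% fell, so the 19 were above the background and the 4 below it. The median log2 fold change was 0.57 over the 34 genes and 0.03 over all genes. In 13 genes every one of the 6 Tet2CD libraries lay above every vector library in CPM, which held for 10.5% of all genes, and 2 genes lay wholly below, against 9.69%.

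BST2 rose most. In the 6 SW480 vector libraries it measured 10.6 to 30.0 TPM with a median of 17.0 TPM, and in the 6 Tet2CD libraries 133 to 237 TPM with a median of 174 TPM. The lowest Tet2CD library was thus far above the highest vector library, whatever the treatment. The log2 fold change was 4.06 (SE 0.31, adjusted p = 8.88e-08), or 16.7-fold, and 3.25 without the 3 libraries that stood apart. In SW620 BST2 remained at 1.69 to 3.79 TPM with vector and 2.06 to 4.50 TPM with Tet2CD.

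IFITM1 rose from 83.0 to 125 TPM with vector to 1052 to 1394 TPM with Tet2CD (log2 4.01, SE 0.31, adjusted p = 1.31e-06), and 3.43 without the 3 libraries. IFITM3 rose from 352 to 550 TPM to 1235 to 3190 TPM (log2 2.49, SE 0.27, adjusted p = 3.66e-06), and by 1.66 without them. At these levels IFITM3 was the highest of the 38 genes in every SW480 Tet2CD library. IFITM2 rose less in the fit than its neighbours. It measured 672 to 893 TPM with vector and 733 to 1060 TPM with Tet2CD, overlapping ranges. Its log2 fold change of 0.55 (SE 0.19, adjusted p = 0.02) became 0.01 (adjusted p = 0.94) without the 3 libraries.

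**Figure D2:**
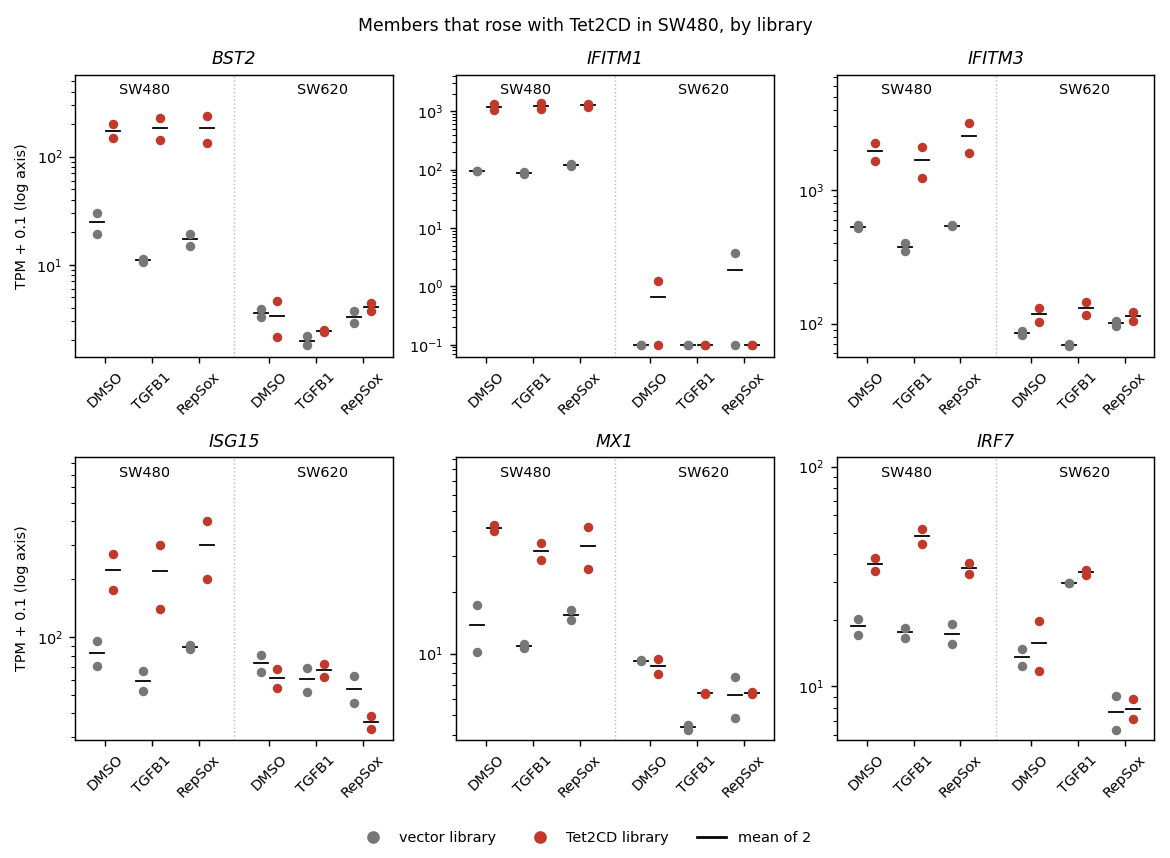
TPM of 6 genes in each of the 24 libraries, on a log axis after adding 0.1. Grey points are vector libraries, red points Tet2CD libraries, and bars the mean of the 2 libraries of a group. In SW480 the red points lie above the grey ones in all 3 treatments for each gene, while in SW620 they lie close to or among them.

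ISG15, the modifier itself, measured 52.0 to 95.1 TPM with vector and 139 to 400 TPM with Tet2CD in SW480, without overlap (log2 2.15, SE 0.32, adjusted p = 8.65e-05). Of the enzymes that attach or remove it, UBE2L6 rose from 13.4 to 30.6 TPM to 31.8 to 64.7 TPM (log2 1.52, SE 0.16), and USP18 by 1.33 on the log2 scale (SE 0.34) with ranges of 0.77 to 3.08 TPM and 1.15 to 4.41 TPM that overlapped. The ligase HERC5 gave 1.04 (SE 0.46, adjusted p = 0.0659), and its relative HERC6 gave 0.47 (SE 0.25, adjusted p = 0.123), neither past the threshold.

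Other effectors that rose were IFI6, which restrains apoptosis, with 10.4 to 31.1 TPM against 47.1 to 123 TPM (log2 2.33, SE 0.34), and IFI27, with 21.4 to 75.8 TPM against 79.3 to 192 TPM (log2 1.98, SE 0.32). The apoptosis-related XAF1 was low, at 0.27 to 0.80 TPM against 0.71 to 4.82 TPM (log2 2.24, SE 0.31). The GTPase MX1, which blocks viral ribonucleoproteins, went from 10.1 to 17.2 TPM to 25.7 to 42.8 TPM (log2 1.96, SE 0.14, adjusted p = 3.35e-08) and stood at 1.82 without the 3 libraries. Its relative MX2 rose by 1.17 (SE 0.18), the exonuclease ISG20 by 1.32 (SE 0.26) and IFI35 by 1.30 (SE 0.25). Several sizes depended on the 3 libraries. Without them the change was 1.33 for IFI6, 1.14 for ISG15, 1.15 for IFI27, 0.56 for ISG20, 0.66 for IFI35 and 1.04 for IRF7, each still past the threshold. UBE2L6 stood at 1.39, XAF1 at 2.28, MX2 at 1.16, USP18 at 1.58, IRF9 at 0.56 and DTX3L at -0.31, while IFIT3, at 0.53 (adjusted p = 0.111), lost its call and PARP9, at 0.47 (adjusted p = 0.012), gained one. In that fit 18 of the 34 genes rose and 3 fell, with 18.2% of all genes rising and 19.9% falling.

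Of the regulators, IRF7 rose most. This transcription factor, which amplifies interferon production, measured 15.5 to 20.3 TPM with vector and 32.5 to 52.1 TPM with Tet2CD in SW480 (log2 1.57, SE 0.20, adjusted p = 2.11e-05), without overlap. IRF9, the DNA-binding subunit of ISGF3, rose by 0.66 (SE 0.15) and IRF1 by 0.37 (SE 0.12, adjusted p = 0.0171). STAT2 did not pass the threshold, at 0.01 (SE 0.15, adjusted p = 0.961). In TPM, STAT2 fell into separate levels within the Tet2CD groups, at 14.6 to 19.1 TPM in the 3 libraries that stood apart and 47.4 to 69.7 TPM in their partners, beside a vector range of 35.0 to 50.4 TPM. The choice of scale mattered for several of the smaller changes. With limma on log2(TPM + 1), the change of IRF1 turned to -0.0923 (adjusted p = 0.759), and the calls of IRF9, USP18, MX2, OAS2, IFIT3 and IFITM2 were lost. In that test 12 genes rose and 4 fell, while 49.2% of all genes were called in either direction. The 16 calls together were close to that share. Of the 12 fits that left out 1 library, IRF1 and IFITM2 kept their calls in 6 each, OAS2 in 8 and IFIT3 in 1.

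The genes that fell with Tet2CD in SW480 encode long transcripts. EIF2AK2, the RNA-activated kinase PKR, measured 19.2 to 32.1 TPM with vector and 2.73 to 15.3 TPM with Tet2CD (log2 -0.91, SE 0.20, adjusted p = 0.0014). OAS3, the synthase for long RNA, measured 13.5 to 16.7 TPM against 1.95 to 11.4 TPM (log2 -0.88, SE 0.23, adjusted p = 0.00513). Neither pair of ranges overlapped. Without the 3 libraries the changes were -0.58 and -0.44, both past the threshold. The ADP-ribosyltransferase PARP14 gave -0.41 (SE 0.13), and -0.17 (adjusted p = 0.167) without the 3 libraries, and the E3 ligase DTX3L gave -0.33 (SE 0.10). The median effective lengths of these genes were 7778 bases for EIF2AK2, 5761 for OAS3, 7604 for PARP14 and 5868 for DTX3L, beside 981 for BST2 and 844 for IFITM1. Since the 3 libraries read long genes low, length moved with these values, and its part in them was not tested. The remaining 11 genes tested changed by -0.84 (SAMD9, SE 0.39) to 1.04 (HERC5) without a call.

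In DMSO alone, with 2 libraries against 2, 8 of the 34 genes rose in SW480 and 0 fell, while 4.15% of all genes rose and 2.52% fell. These were IFITM1 (log2 3.88, SE 0.53), BST2 (3.48, SE 0.52), IFITM3 (2.08), XAF1 (2.02), MX1 (1.97), IRF7 (1.47), MX2 (1.16) and UBE2L6 (1.13). The calls of IFITM1, BST2 and MX1 held in each of the 11 alternative fits, while the other 5 were each lost without SW480 Tet2CD DMSO replicate 1 and without either SW480 vector DMSO library. Without the 3 libraries, which leaves 1 Tet2CD library in DMSO that is assumed to vary like the others, the change was 3.44 for IFITM1, 2.98 for BST2, 1.57 for IFITM3 and 1.04 for IRF7, and XAF1 at 1.75 lost its call (adjusted p = 0.0855).

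In SW620 none of the 34 genes passed the threshold for Tet2CD, either averaged over the treatments (0.307% of all genes called) or in DMSO alone (0.0261%). At an unadjusted p under 0.05 there was 1 in each, and DESeq2 called 1 and 0. The TET2 row rose by 6.14 on the log2 scale in SW620 (SE 0.44) and by 6.21 in SW480 (SE 0.43), a difference of 0.06 (SE 0.53, adjusted p = 0.977). The SW480 mean joined unlike levels. In SW480 Tet2CD cells with DMSO, TGFB1 and RepSox, the row read 892, 824 and 269 CPM in the libraries that stood apart. Their partners read 1843, 2632 and 1685 CPM. The SW620 Tet2CD libraries read 691 to 1272 CPM. UBE2L6 had the largest fitted change of the 34 in SW620 (log2 1.00, SE 0.22, adjusted p = 0.0751). It measured 5.99 to 10.5 TPM in the 6 Tet2CD libraries and 1.81 to 6.68 TPM in the 6 vector libraries, overlapping ranges. In CPM UBE2L6 measured 5.45 to 7.75 with Tet2CD and 1.54 to 4.26 with vector, without overlap. It was the only 1 of the 34 genes that lay wholly above in SW620, and 0 lay wholly below. Of all 15302 genes tested, 56 lay wholly above and 23 wholly below. IFITM3 measured 68.2 to 104 TPM with vector and 102 to 145 TPM with Tet2CD (log2 0.45, SE 0.27, adjusted p = 0.818). When only the 12 SW620 libraries were fitted, UBE2L6 at 1.01, IFITM3 at 0.46 and IFITM2 at 0.34 passed the threshold, with 5.44% of all genes called.

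**Figure D3:**
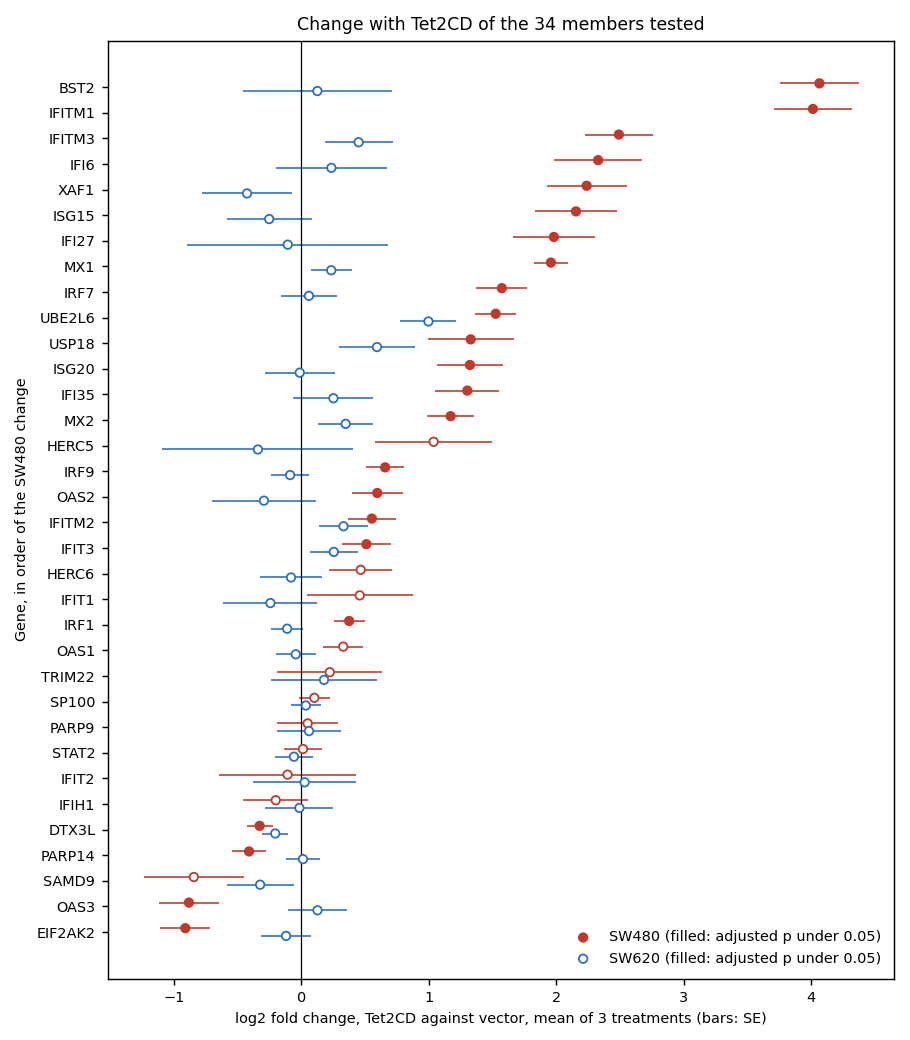
Log2 fold change of Tet2CD against vector for the 34 genes tested, averaged over the 3 treatments, with SE bars, in SW480 (red) and SW620 (blue). Filled points passed an adjusted p of 0.05. IFITM1 in SW620 is left out because it had almost no counts there. The red points run from -0.91 for EIF2AK2 to 4.06 for BST2, while the blue points are all open.

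Whether Tet2CD acted differently in the 2 lines was tested as an interaction. For 9 genes the Tet2CD change was larger in SW480 than in SW620 and for 1 it was more negative, with 10.1% and 9.77% of all genes called in the 2 directions. The differences on the log2 scale were 3.94 for BST2 (SE 0.76, adjusted p = 0.00278), 2.66 for XAF1, 2.41 for ISG15, 2.09 for IFI6, 2.04 for IFITM3, 1.72 for MX1 (SE 0.21, adjusted p = 7.34e-05), 1.51 for IRF7, 1.34 for ISG20, 0.75 for IRF9 and -1.01 for OAS3. For IFITM1, near 0 in SW620, the edgeR fit gave no usable error and no call, while DESeq2 and limma both called its change larger in SW480. For UBE2L6, USP18 and IFITM2 the difference, at 0.53 (SE 0.28), 0.73 (SE 0.45) and 0.22 (SE 0.27), did not pass the threshold (adjusted p = 0.177, 0.236 and 0.571). Leaving out SW480 Tet2CD DMSO replicate 1 ended the calls of ISG20, OAS3 and IRF9, and OAS3 kept its call in 6 and IRF9 in 16 of the 24 fits that left out 1 library. Without the 3 libraries the differences were 3.12 for BST2, 1.37 for ISG15, 1.09 for IFI6, 1.20 for IFITM3, 0.97 for IRF7, 0.56 for ISG20 and -0.58 for OAS3, each past the threshold.

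The third comparison was of TGFB1 with DMSO, averaged over vector and Tet2CD cells, 4 libraries against 4 in each line. TGFB1 is an immunosuppressive cytokine that signals through SMAD proteins. In SW620, 9 of the 34 genes rose and 1 fell, with 8.24% of all genes rising and 7.21% falling. The median log2 fold change was 0.28 over the 34 genes and 0.01 over all genes. In SW480 none passed the threshold (1.03% of all genes called, 5 of the 34 at an unadjusted p under 0.05, and 0 by DESeq2 or limma). Without the 3 SW480 Tet2CD libraries 4 passed in SW480, where 6.7% of all genes were called. PARP14 rose by 0.51, and IFI6, IFI27 and IFITM3 gave -0.81, -0.93 and -0.56 on the log2 scale.

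The genes that rose in SW620 included the transcription factors. IRF1 measured 22.0, 25.4, 28.5 and 30.2 TPM in the 4 DMSO libraries and 45.2, 53.2, 63.3 and 85.2 TPM in the 4 TGFB1 libraries, without overlap. Its log2 fold change was 1.20 (SE 0.15, adjusted p = 5.89e-05), against -0.13 (SE 0.15) in SW480, and the difference between the lines was -1.33 (SE 0.21, adjusted p = 0.00407). IRF7 measured 11.7, 12.3, 14.7 and 19.7 TPM with DMSO and 29.3, 29.4, 32.1 and 33.7 TPM with TGFB1 (log2 1.05, SE 0.25, adjusted p = 0.00895). STAT2 rose by 0.59 (SE 0.18, adjusted p = 0.0361) and IRF9 by 0.75 (SE 0.18, adjusted p = 0.00872). The IRF9 libraries overlapped, since SW620 Tet2CD TGFB1 replicate 2 read 13.0 TPM and replicate 1 read 38.6 TPM.

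Among the effectors, ISG20 rose most, from 16.6, 16.9, 17.6 and 21.6 TPM with DMSO to 47.3, 48.4, 48.4 and 69.7 TPM with TGFB1 (log2 1.51, SE 0.33, adjusted p = 0.00472). OAS1, the synthase of 2-5A, went from 7.65, 8.11, 9.81 and 10.4 TPM to 13.8, 14.5, 16.4 and 19.2 TPM (log2 0.85, SE 0.19). SP100, a component of PML nuclear bodies, went from 23.8, 30.9, 34.9 and 41.0 TPM to 44.8, 48.6, 54.5 and 60.6 TPM (log2 0.74, SE 0.14, adjusted p = 0.00193). No TGFB1 library of these 3 genes fell within the DMSO range. In CPM, every TGFB1 library lay above every DMSO library for 8 of the 34 genes and below for 1. Over all 15302 genes tested, 2345 lay wholly above and 2414 wholly below. IFIT3 rose by 0.73 and DTX3L by 0.47 on the log2 scale. MX1 fell by 0.60 (SE 0.19, adjusted p = 0.0451), from 7.83 to 9.29 TPM to 4.15 to 6.34 TPM.

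In SW480 the same genes gave log2 changes of 0.21 for ISG20, 0.36 for IRF7, -0.14 for OAS1 and -0.22 for SP100. The difference between the lines passed the threshold for IRF1 and for SP100, at -0.96 (SE 0.20, adjusted p = 0.0205), with 1.18% of all genes called lower and 0.895% higher. For ISG20 it was -1.29 (SE 0.45, adjusted p = 0.173). The call of SP100 was lost on leaving out any 1 of 10 of the 16 libraries, and that of IRF1 on none. Without the 3 SW480 Tet2CD libraries 6 genes passed, with ISG20 at -1.44, IRF1 at -1.21, OAS1 at -1.09, IFI6 at -1.08, SP100 at -0.95 and IRF7 at -0.72. In that fit 3.61% of all genes were called lower and 5% higher. With limma on log2(TPM + 1) neither IRF1 nor SP100 passed (adjusted p = 0.195 and 0.313), and ISG20 did. In SW620 itself ISG20, IRF1 and IRF7 passed in every alternative fit. The other 7 calls were lost in at least 1, all 7 of them in the limma test. When 1 of the 8 libraries was left out, the calls of IFIT3, MX1 and STAT2 were each lost in 7 fits and that of DTX3L in 5. The call of IRF9 was lost without SW620 Tet2CD DMSO replicate 1, SW620 Tet2CD TGFB1 replicate 1 or SW620 vector DMSO replicate 1. DESeq2, RLE factors and the fit without a filter did not call MX1 either.

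**Figure D4:**
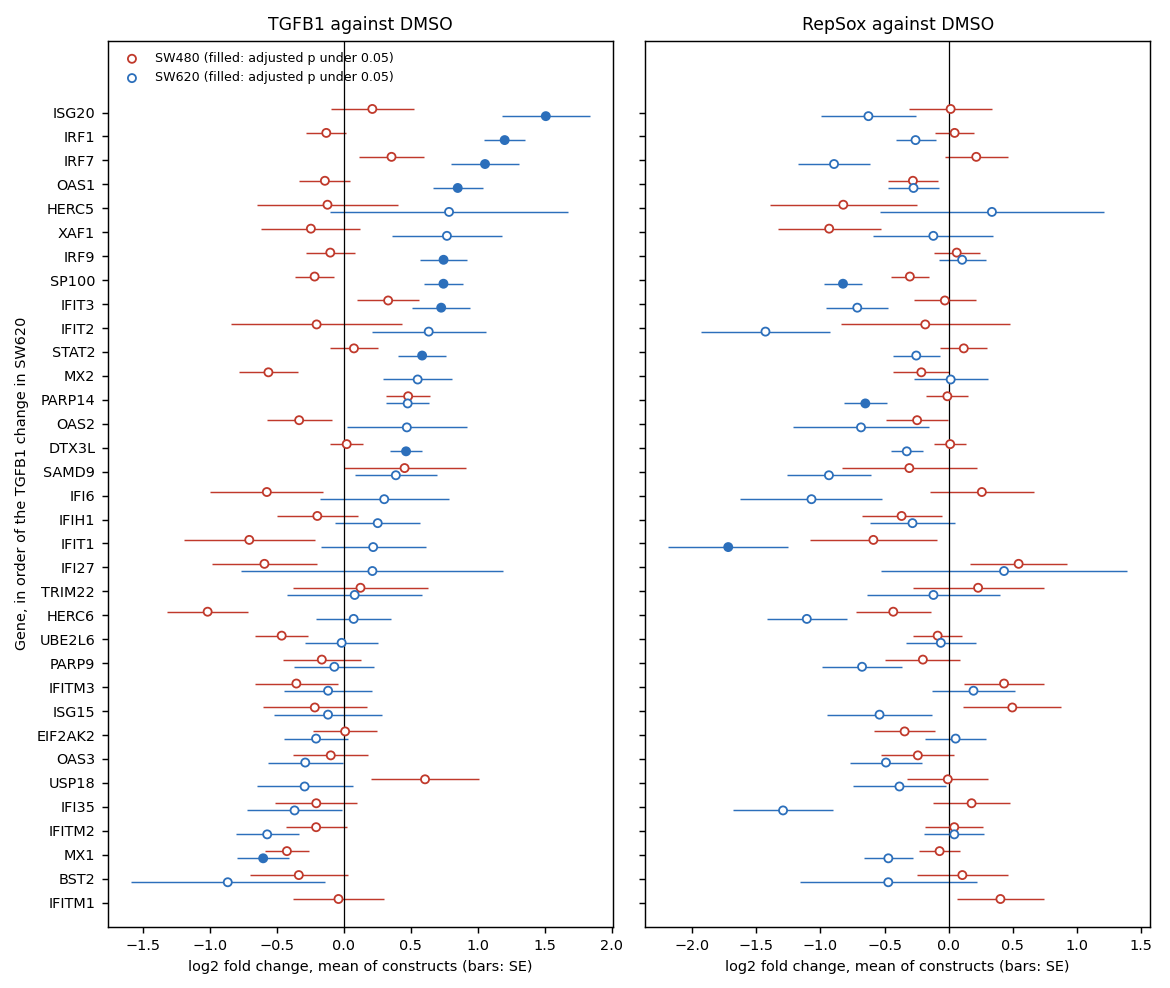
Log2 fold change of TGFB1 (left) and RepSox (right) against DMSO for the 34 genes tested, averaged over vector and Tet2CD cells, with SE bars, in SW480 (red) and SW620 (blue). Filled points passed an adjusted p of 0.05. IFITM1 in SW620 is left out because it had almost no counts there. The filled points are all in SW620, to the right of 0 in the left panel apart from MX1, and to the left of 0 in the right panel.

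The fourth comparison was of RepSox with the same DMSO libraries, so that the TGFB1 and RepSox contrasts share their controls. In SW620, 3 of the 34 genes fell and 0 rose, with 2.6% of all genes falling and 1.9% rising. IFIT1 went from 0.85, 1.31, 1.77 and 3.62 TPM to 0.30, 0.43, 0.48 and 0.57 TPM (log2 -1.72, SE 0.47, adjusted p = 0.0453), low levels throughout. SP100 went from the DMSO values above to 13.4, 15.4, 15.4 and 16.8 TPM (log2 -0.82, SE 0.15, adjusted p = 0.00384), and PARP14 from 8.84, 9.72, 9.89 and 13.4 TPM to 5.92, 6.04, 6.28 and 6.30 TPM (log2 -0.65, SE 0.17, adjusted p = 0.0359). None of the RepSox libraries of these 3 genes reached the DMSO range. The call of SP100 held in every alternative fit, while that of PARP14 was lost on leaving out any 1 of the 8 libraries, that of IFIT1 on leaving out any 1 of 7, and both with limma. Side by side, the log2 change of SP100 was 0.74 with TGFB1 and -0.82 with RepSox. That of IRF7 was 1.05 and -0.89 (adjusted p = 0.0908 for RepSox), that of ISG20 1.51 and -0.63 (adjusted p = 0.451), and that of IRF1 1.20 and -0.26 (adjusted p = 0.466).

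In 14 of the 34 genes all 4 RepSox libraries lay below all 4 DMSO libraries in CPM, and in 0 did they lie above, while 9.87% and 10.7% of all genes did so. These were IFIT1, IFIT2, IFIT3, IFI6, IFI35, ISG20, OAS3, IRF7, HERC6, SAMD9, PARP9, DTX3L, PARP14 and SP100. The median log2 fold change was -0.43 over the 34 genes and 0.02 over all genes. The count of calls depended on which libraries were fitted. Fitted on the 12 SW620 libraries alone, 14 genes fell and 0 rose, where 20.8% of all genes were called in either direction, and without the 3 SW480 libraries that stood apart 14 fell, where 15.8% were called. IFI35 then fell by 1.31 and IRF7 by 0.91 on the log2 scale in the fit of SW620 alone. In SW480 RepSox gave no call among the 34 genes or among all genes (0% called, 1 of the 34 at an unadjusted p under 0.05, and 0 by DESeq2 or limma). The difference between the lines passed for none of the 34 (0.98% of all genes called, 4 at an unadjusted p under 0.05).

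**Figure D5:**
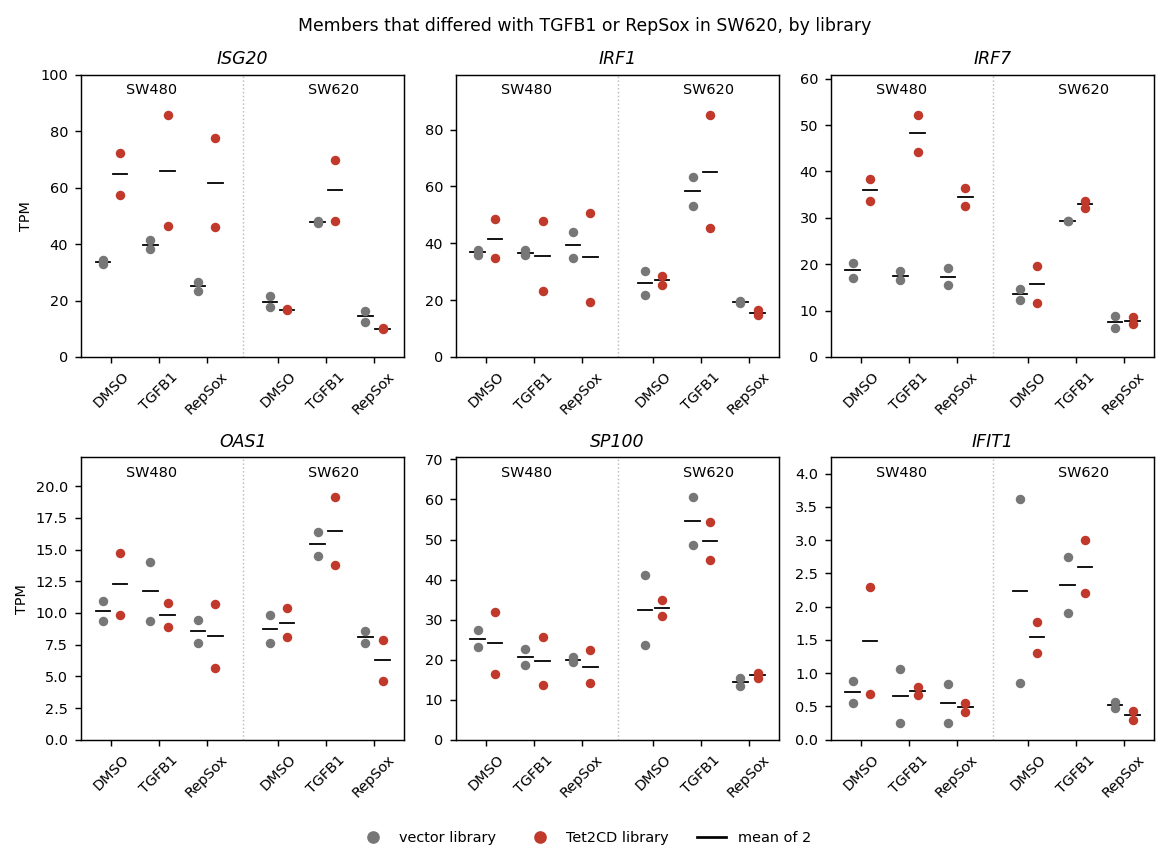
TPM of 6 genes in each of the 24 libraries, on linear axes from 0. Grey points are vector libraries, red points Tet2CD libraries, and bars the mean of the 2 libraries of a group. In SW620, ISG20, IRF1, IRF7, OAS1 and SP100 are highest with TGFB1, and SP100 and IFIT1 are lowest with RepSox. In SW480 IRF7 is higher in Tet2CD cells in each treatment.

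Genes around the 38 in the pathway were counted from 7 lists. Antigen presentation, whose class I genes are also interferon targets, moved most with Tet2CD in SW480. Of 18 genes tested 13 rose and 3 fell, against the 29.1% and 25.2% of all genes given above. HLA-B, a class I heavy chain, rose by 2.06 (SE 0.14, adjusted p = 2.78e-08) and HLA-C by 1.49 on the log2 scale, while the peptidase ERAP2 fell by 0.81 and the transporter subunit TAP2 by 0.41. HLA genes share sequence and vary between people, so reads may be split among them. Without the 3 libraries 13 rose and 1 fell, with HLA-B at 1.71, HLA-C at 1.20 and ERAP2 at -0.66, and TAP2 at -0.28 lost its call (adjusted p = 0.055). For 10 of the 18 the change was larger in SW480 than in SW620, among them HLA-B by 1.53 and HLA-F by 1.81, and for TAP2 it was more negative, at -0.65, beside 10.1% and 9.77% of all genes. In vector cells 12 of the 18 were higher in SW480 and 0 lower, with HLA-B 2.02 higher, beside 28.9% and 30% of all genes.

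The other lists lay closer to the 29.1% of all genes that rose and the 25.2% that fell, and counts this small are a description of the lists. Among 30 tested of 40 other interferon-induced genes, 12 rose and 7 fell with Tet2CD in SW480, including APOL1, which rose by 1.99, TYMP, which rose by 3.62, and the E3 ligase RNF213, which fell by 1.10. Of 9 receptor and JAK kinase genes 3 rose and 2 fell. IL10RB, the shared chain of the type III interferon receptor, rose by 1.09, while its partner IFNLR1 fell by 0.90 and JAK1 by 0.63. Among the other IRF genes tested, IRF3 rose by 0.73 and IRF5 by 0.53, and IRF2 fell by 0.72. Of 9 nucleic acid sensors and adaptors 1 rose, DHX58 by 3.71, and 2 fell, TRIM25 by 1.05 and ADAR by 0.87. Of 10 negative regulators 4 rose and 2 fell, with TRIM21 up by 0.94 and the phosphatase PTPN11 down by 1.36. Without the 3 libraries the changes were 2.80 for TYMP, 3.43 for DHX58, 1.62 for APOL1, -0.81 for RNF213, -0.51 for IFNLR1, -0.31 for JAK1, -0.59 for ADAR and -0.83 for PTPN11, each past the threshold, while IRF3 at 0.19, IRF5 at 0.29 and IRF2 at -0.27 lost their calls (adjusted p = 0.114, 0.171 and 0.104). In SW620, Tet2CD gave no call in any of these lists in the fit of all 24 libraries. Without the 3 libraries, averaged over the treatments, 1 receptor or JAK kinase gene was called lower in SW620. In that fit 1 antigen presentation gene and 1 other interferon-induced gene were called higher, beside 2.21% of all genes higher and 1% lower.

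With TGFB1 in SW620, 5 of the 18 antigen presentation genes rose and 0 fell, beside 8.24% and 7.21% of all genes, led by HLA-B at 0.64 and TAPBP at 0.81. In the fit without the 3 SW480 Tet2CD libraries that stood apart, some antigen presentation genes were also called lower. The direction of this count thus depended on the fit. Of the 9 sensors and adaptors 3 rose and 0 fell, with the kinase IKBKE at 0.75 and the RNA sensor DDX58 at 0.93. Of the 30 other interferon-induced genes 4 rose and 4 fell, TRIM5 with a log2 change of 1.01 and the lysosomal reductase IFI30 with -1.37 among them. With RepSox in SW620, 3 of those 30 fell, APOL2 by 1.23 and SHISA5 by 0.69 among them, and 0 rose, beside 2.6% and 1.9% of all genes. NLRC5, the transactivator of class I genes, rose by 2.02 in that comparison while no other antigen presentation gene passed the threshold.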

How the data were processed

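RNA-seq was done on 24 libraries of SW480 and SW620 cells. Per the methods of the study, RNA was extracted with TRIzol, libraries were made with a TruSeq kit and sequenced on an Illumina NextSeq, and reads were trimmed with Trimmomatic and quantified with RSEM and bowtie2 on Ensembl transcripts. The submitters' processing notes name Bowtie, RSEM and the build mm10, although the gene IDs are human. The strand setting was not given in the sources used here, so reads of overlapping antisense genes cannot be told apart. The authors deposited 1 table per library with the expected counts, which RSEM divides among genes that share reads, and with TPM values, which the authors' RSEM run scaled to gene length and library total. A further column with FPKM was not used. In 22 of the 24 tables the effective length equalled the length.

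Expected counts were rounded to whole numbers. Genes with low counts were removed by filterByExpr, which left 15302 genes, and 1 edgeR quasi-likelihood model (edgeR 4.0.16, robust, TMM factors, R 4.3.3) was fitted to all 24 libraries with the 12 groups as terms, leaving 12 residual degrees of freedom. The common biological coefficient of variation was 21.3%. Contrasts were adjusted by Benjamini-Hochberg over all genes tested, with a threshold of 0.05, and SEs were derived from the quasi-likelihood F and left out for IFITM1 where F was near 0. The model was tested on simulated counts. These used the fitted trend of the spread between libraries and no shift with gene length, so they did not cover the libraries that stood apart. Symbols and positions came from GENCODE 29 (GRCh38), which matched 98.2% of the IDs, and promoter windows from RefSeq.

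The 38 genes and the pathway lists were chosen with earlier results of these data known. Values are given for the genes with the largest changes by line and by Tet2CD, the 5 highest genes, the genes called in a treatment or interaction contrast and 5 regulators, and up to 2 genes per direction of each pathway list by p. Alternatives were DESeq2 (1.42.0), RLE factors, no filter, the libraries of 1 line alone, omission of the 3 SW480 Tet2CD libraries that stood apart, a replicate block and omission of each library. A test of log2(TPM + 1) with limma 3.58.1 was added after seeing the data. The 2 libraries of every group differed by more than sampling noise.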

Additional observations from a re-analysis of the deposited data

Results flagged for a closer look

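The change with Tet2CD, averaged over the treatments, differed between the lines for 10 of the 34 genes tested, by the interaction term of the edgeR model with Benjamini-Hochberg adjustment over all genes. As SW480 minus SW620 on the log2 scale, the difference was 3.94 for BST2 (adjusted p = 0.00278), 2.66 for XAF1 (0.00177), 2.41 for ISG15 (0.0027), 2.09 for IFI6 (0.0182), 2.04 for IFITM3 (0.00198), 1.72 for MX1 (7.34e-05), 1.51 for IRF7 (0.0031), 1.34 for ISG20 (0.0246), 0.75 for IRF9 (0.0217) and -1.01 for OAS3 (0.0401). The response to TGFB1, averaged over vector and Tet2CD cells, differed for IRF1, at -1.33 (adjusted p = 0.00407), and for SP100, at -0.96 (adjusted p = 0.0205). Without the 3 SW480 Tet2CD libraries that stood apart, the Tet2CD differences were 1.37 for ISG15, 1.09 for IFI6, 1.20 for IFITM3, 0.97 for IRF7, 0.56 for ISG20 and -0.58 for OAS3, and the call of OAS3 held in 6 of the 24 fits that left out 1 library. The call of SP100 was lost on leaving out any 1 of 10 of the 16 libraries of its comparison, and limma called neither IRF1 nor SP100.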

How the results depend on the processing

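Of 2249 values of single genes and of counts recomputed under an alternative, 2014 kept their direction and side of the threshold. The reversed one was IRF1 with Tet2CD in SW480, at -0.0923 with limma on log2(TPM + 1). Counts of genes called that moved by over 1.5 times were as follows, and the cause was not tested. For Tet2CD in SW480 with DMSO the count of 8 became 3 with the line alone and 5 with limma. For Tet2CD in SW620 averaged over treatments the count of 0 became 1 without a filter, 1 with DESeq2, 3 with the line alone and 3 without the 3 SW480 Tet2CD libraries that stood apart. Without those 3, TGFB1 in SW480 gave 4, the difference in TGFB1 response 6 against 2, and the difference in RepSox response 3 against 0, which was 1 without a filter. In that fit without the 3, the shares of all genes called were 6.7%, 8.61% and 4.01%, against 1.03%, 2.07% and 0.98% with all libraries. With limma, TGFB1 in SW620 gave 4 against 10 and the difference in its response 1. RepSox in SW620, at 3, gave 6 without a filter, 14 with the line alone, 14 without the 3 libraries and 5 with a replicate block. RLE factors turned the split of TGFB1 calls in SW620 from 9 higher and 1 lower to 10 and 0. When 1 library was left out at a time, the counts ranged from 3 to 9 for Tet2CD in SW480 with DMSO, 19 to 24 averaged over treatments, 0 to 1 for Tet2CD in SW620, 7 to 16 for the difference between lines, 15 to 21 for the lines, 5 to 8 for TGFB1 in SW620, 1 to 4 for its difference, 1 to 2 for RepSox in SW620 and 0 to 2 for its difference. The 3 arose without SW480 Tet2CD DMSO replicate 1 or either SW480 vector DMSO library, the 16 without SW480 Tet2CD TGFB1 replicate 2 or SW480 Tet2CD RepSox replicate 2, and the 5 without SW620 Tet2CD DMSO replicate 1. The block for library numbers 21 to 32 against 33 to 44, which share no more than a position in the numbering, kept all 76 calls. Differences between the 2 libraries of a group correlated between groups by -0.389 to 0.835, with 23 of 66 pairs of groups above 0.1. Depth limited IFI44, IFI44L, SAMD9L and OASL, which were not tested, and IFITM1 in SW620.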
